A study of Drosophila melanogaster with 4 samples.

Results

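Short reproducible H3K18ac clusters are regions under 4 kb of the chromosome arms 2L, 3L and 3R that were enriched for histone H3 acetylated at lysine 18 in both ChIP replicates. They were selected on their length in the combined list of the series and on an overlap of at least 1 bp with a cluster of replicate 1 and a cluster of replicate 2. The autosomal arm 2R is outside the rule and has no counts of its own here. The rule found 403 such regions among the 7536 regions of the combined list, which is 5.35%. Length and replicate overlap are therefore given below as descriptions. Scores, edges and gaps come from the same ChIP lists, and no test was run on any of them.

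The chromatin came from embryos of the wild-type strain Oregon-R, aged 14 to 16 h, with no transgene or treatment named. The series has 2 ChIP libraries made with an antibody lot described as new, and 2 input libraries, each the control of the ChIP library with the same replicate number. The deposited data are lists of enriched regions (start, end and a score) for each ChIP replicate and for the combined set. No read counts came with them, so the depth behind each value is unknown, and nothing in the labels says that the replicates were separate embryo collections. Whole embryos mix many cell types, so fewer cells carrying the mark and less of the mark per cell cannot be told apart.

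H3K18ac neutralises a positive charge on the tail of histone H3 and is found at active promoters and enhancers. In flies the acetyltransferase Nejire, the CBP and p300 homologue, places it, and histone deacetylases remove it. Acetylation of this kind can stay within a few nucleosomes around an individual regulatory element or spread over a whole active locus. In embryos of this age the muscles, nervous system and cuticle are forming. No genome or annotation of the build of these lists (FlyBase r5) was used here, so regions are named by arm and coordinates and neither genes nor sequences are given.

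The 3 arms held 4605 combined clusters, of which 30.1% overlapped both replicates whatever their length. Among the 3495 combined clusters under 4 kb this share was 11.5% (403 clusters, 95% exact Clopper-Pearson interval 10.5 to 12.6). A further 503 short clusters overlapped replicate 1 alone and 549 overlapped replicate 2 alone, while 2040 overlapped neither. Both shares follow from the rule itself and describe how the 403 were chosen. Since both libraries also fed the combined list, its overlap with either replicate is not independent of it.

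Within the short range, overlap with both replicates was more frequent in longer clusters. Of 1483 clusters under 1.5 kb, 1 overlapped both replicates, and of 944 clusters of 1.5 to 2 kb, 48 did (5.08%). The share was 26.2% for lengths of 2 to 2.5 kb and 31.7% for 2.5 to 3 kb. For 3 to 3.5 kb it was 37.2%, and it reached 48.1% above 3.5 kb. The share overlapping neither replicate went from 88.5% in the shortest of these classes to 10.6% in the longest. The replicate lists held no cluster under 1301 bp, whereas the combined clusters of these arms began at 1001 bp. A longer region also meets another list more easily under a 1 bp rule.

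**Figure D1:**
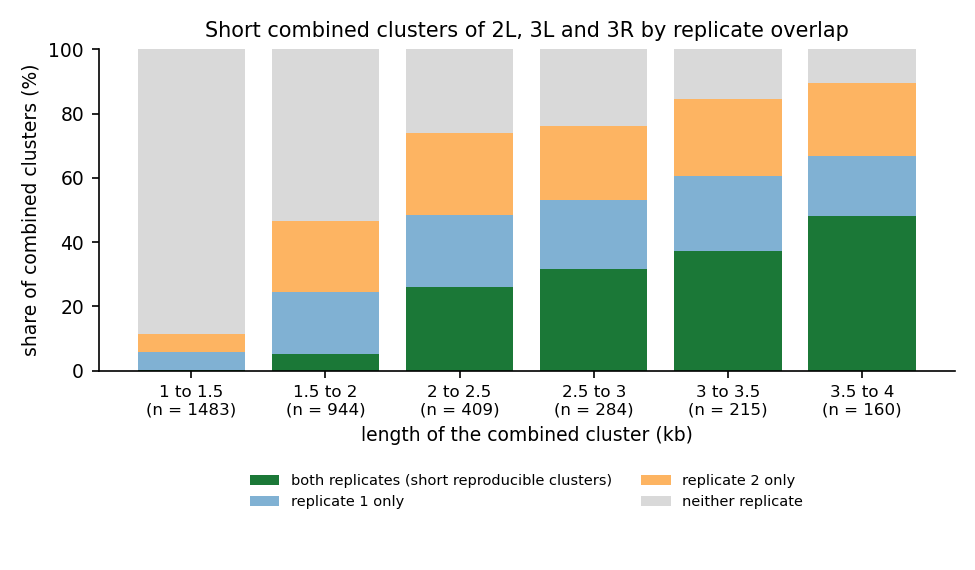
Stacked bars give the share (%, vertical axis) of combined clusters of 2L, 3L and 3R that overlapped both replicates, replicate 1 only, replicate 2 only or neither, for 6 classes of length in kb (horizontal axis, with the number of clusters). The share in both replicates rises from 1 of 1483 clusters at 1 to 1.5 kb to 48.1% at 3.5 to 4 kb.

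The 403 short reproducible clusters measured 1349 to 3999 bp, with a median of 2733 bp, and together covered 1.13 Mb. This was 1.50% of the 3 arms and 6.05% of the bases in combined clusters there. The longest, of 3999 bp, was 3R from 4078616 to 4082614, and the next, of 3995 bp, was 2L from 19232152 to 19236146. Just beyond the limit, the shortest clusters that otherwise met the rule were 3R from 26883752 to 26887758, of 4007 bp, and 2L from 22872106 to 22876120, of 4015 bp. The combined scores were 0.39 and 0.47 for the pair inside the limit and 0.58 and 0.50 for the pair outside. Replicate 1 scores were 0.50 and 0.61 inside and 0.65 and 0.60 outside, and replicate 2 scores 0.54 and 0.52 inside and 0.61 and 0.59 outside. These scores are the authors' own values, with no stated unit.

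At most short reproducible clusters each replicate held 1 cluster. This was so for 385 of 403 (95.5%), while 8 had 1 cluster in replicate 1 and 2 in replicate 2, 9 had the opposite and 1 had 2 in each. The replicate clusters were the shorter ones: they had median lengths of 1909 bp (replicate 1) and 1908 bp (replicate 2), and the combined cluster was longer than both at 365 of 403 regions. Replicate 1 covered a median of 73.5% of the combined cluster and replicate 2 a median of 75.8%. Both covered at least 50% of it at 311 regions, and both covered less than 50% at 18.

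A shared region did not always mean shared bases. At 13 of the 403 regions the clusters of the 2 replicates had no base in common and each met a different portion of the combined cluster. Of these, 10 lay within 1 kb of another combined cluster and 3 at 1 to 5 kb. The shortest of all 403 regions, 3R from 17119514 to 17120862 (1349 bp), shows a related case. Replicate 1 covered 10.3% of it, with the near end of a cluster of 4209 bp that lay mainly on the neighbouring region, and replicate 2 covered 93.1% of it with a cluster of 1329 bp. In all, 20 regions met a replicate 1 cluster that also overlapped another combined cluster, and 8 met such a cluster of replicate 2. All but 1 of these overlaps, which was at a replicate 1 cluster, belonged to regions within 1 kb of their neighbour.

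All 3 arms carried short reproducible clusters. There were 112 on 2L, 151 on 3L and 140 on 3R. The density was 5.34 per Mb over the 3 arms (95% exact Poisson interval 4.83 to 5.89). By arm it was 4.87 per Mb on 2L (4.01 to 5.86), 6.15 on 3L (5.21 to 7.22) and 5.02 on 3R (4.22 to 5.92). The intervals of the 3 arms overlap, which is not a test between arms, and a difference in density was not tested. The intervals cover counting error and treat clusters as independent. The share of short combined clusters that were in both replicates was 10.4% on 2L, 12.5% on 3L and 11.5% on 3R. Under the same criteria the X held 121 regions, 5.40 per Mb (4.48 to 6.45), within the range of 2L, 3L and 3R.

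Along the arms, 72 of 74 full windows of 1 Mb held at least 1 short reproducible cluster. The median window held 5 and the fullest held 14. The variance over windows was 1.30 times the mean of 5.38. The 10 fullest windows held 97 of the 403 regions, or 24.1%. The fullest was 3L from 21000001 to 22000000 with 14 regions among 63 combined clusters, followed by 3R from 25000001 to 26000000 with 11 among 65. On 2L the highest number was 8, reached in 3 windows, the first of them at the start of the arm, from 1 to 1000000.

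The emptiest windows were not empty of the mark. Clusters were assigned to windows by their centre. No short reproducible cluster was centred on 3L from 10000001 to 11000000, although 58 combined clusters covered 32.7% of that window, and 1 centred in the next window, from 10998920 to 11002120, began inside it. None was centred on 3R from 23000001 to 24000000, where 42 combined clusters covered 11.8%. On 2L the lowest number was 1, from 15000001 to 16000000, a window covered to 5.35% by 28 combined clusters. Over the 74 windows the number of short reproducible clusters had a Spearman's rho of 0.41 and a Pearson's r of 0.38 with the number of all other combined clusters. With the number of reproducible clusters of 10 kb and more these values were 0.07 and 0.05. Neighbouring windows and both counts come from the same list, so these are descriptions with no p-value.

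**Figure D2:**
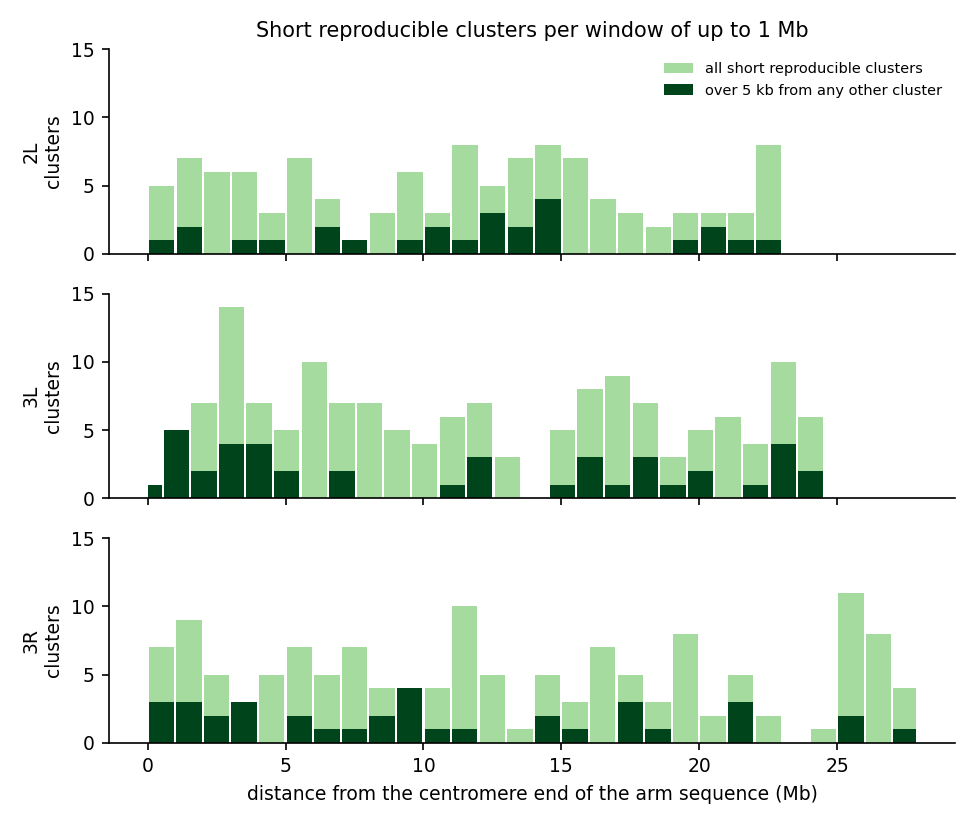
Each bar is a window of up to 1 Mb on 2L, 3L or 3R, placed by its distance in Mb from the centromere end of the arm sequence (horizontal axis), and its height is the number of short reproducible clusters. The dark part counts those over 5 kb from any other combined cluster. Numbers run from 0 to 14, with the highest bar on 3L and an empty full window on 3L and on 3R.

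Short reproducible clusters reached the centromere ends of the arm sequences. The last 1 Mb held 5 short reproducible clusters on 2L, 4 on 3L and 7 on 3R. The rest of each arm held 4.86, 6.24 and 4.94 per Mb. Together the 3 centromere ends held 16 regions (exact Poisson interval 9.15 to 26.0), which for 3 Mb is within counting error of the 5.34 per Mb found elsewhere. Of these 16, 8 lay over 5 kb from any other combined cluster.

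Most neighbours among the short reproducible clusters were far apart. The gap from one to the next along an arm had a median of 105 kb, with quartiles of 34.0 and 265 kb, and 44 of 400 gaps (11.0%) were under 10 kb. The 3 tightest runs of 5 consecutive regions spanned 74.1 kb on 2L from 20877224 to 20951338, 75.1 kb on 2L from 35242 to 110378 and 102 kb on 3R from 11244634 to 11346390. The first run held 12 combined clusters, and its 5 short reproducible ones measured 3001 to 3797 bp and lay between the 66.0th and 84.4th percentile of combined score. The second also held 12 combined clusters, and its 5 measured 1937 to 3919 bp and lay between the 27.2nd and 85.5th percentile. The third held 19, and its 5 measured 2067 to 3357 bp and lay between the 17.1st and 86.8th percentile.

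Isolation was measured as the number of bases to the nearest other cluster of the combined list, whatever its length or replicate overlap. The median gap of the 403 regions was 1397 bp, with quartiles of 316 and 5343 bp. Within 1 kb of another cluster lay 174 regions (43.2%, exact interval 38.3 to 48.2), at 1 to 5 kb 125 (31.0%), and over 5 kb away 104 (25.8%, 21.6 to 30.4). Over 20 kb lay 26 and over 50 kb 6. By arm the median gap was 999 bp on 2L, 1491 bp on 3L and 1665 bp on 3R.

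The share beyond 5 kb was also taken for other classes of combined clusters on the same arms. It was 13.1% (exact interval 10.3 to 16.4) for short clusters in replicate 1 only, 22.0% (18.6 to 25.7) for those in replicate 2 only and 21.6% (19.8 to 23.5) for those in neither. It was 15.1% (12.3 to 18.2) for reproducible clusters of 4 to 10 kb and 14.0% (10.7 to 17.9) for those of 10 kb and more. The interval of the short reproducible clusters lies above those of the longer classes and of replicate 1 only, and overlaps those of replicate 2 only and of neither. The median gaps were 1397 bp for the short reproducible class, 565 bp at 4 to 10 kb and 403 bp at 10 kb and more. Clusters are not independent samples, and no test was run.

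**Figure D3:**
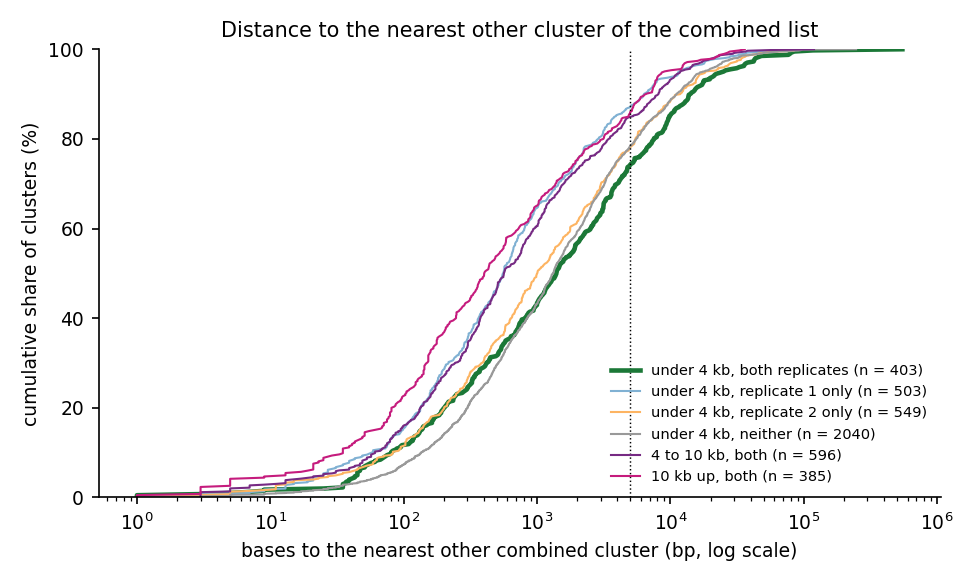
Curves give the cumulative share (%, vertical axis) of combined clusters of 2L, 3L and 3R by the bases to the nearest other combined cluster (horizontal axis, log scale), for 6 classes. The dotted line marks 5 kb, beyond which lie 25.8% of the short reproducible clusters and 14.0% of reproducible clusters of 10 kb and more.

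The clusters next to short reproducible clusters were of all 3 classes of length. Of the 174 regions with a neighbour within 1 kb, that neighbour was under 4 kb in 126 cases (72.4%, against 75.9% of all combined clusters of the 3 arms), 4 to 10 kb in 29 and 10 kb or more in 19. It overlapped both replicates in 63 cases (36.2%, against 30.1% of all combined clusters there), 1 replicate in 50 and neither in 61 (35.1%). In 17 cases it was itself a short reproducible cluster, a class that made up 8.75% of the combined clusters of the 3 arms. Among the 104 regions over 5 kb away, the nearest neighbour was under 4 kb in 85 cases (81.7%) and overlapped neither replicate in 41 (39.4%). Of all 4605 combined clusters there, at least 2040 overlapped neither, counting short ones alone.

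Isolation depended on which clusters counted as neighbours. Counting only combined clusters that overlapped both replicates, the median gap was 8743 bp and 245 regions (60.8%) lay over 5 kb away. The nearest reproducible cluster of 10 kb or more was at a median of 62851 bp, and over 20 kb away for 304 regions (75.4%). Measured within the replicate lists, 55.1% of the regions lay over 5 kb from the next cluster of replicate 1 and 57.6% from that of replicate 2. Of the 104 regions isolated in the combined list, 102 were isolated in both replicate lists too. The replicate lists held fewer clusters on these arms (2707 and 3029, against 4605). They also share their libraries with the combined list, so this agreement is not independent. Another 76 regions were isolated in both replicate lists but had a combined cluster within 5 kb, of a median length of 1480 bp.

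The 5 most isolated regions lay on 3L, 3R and 2L. The farthest was the last combined cluster of 3L, from 24529636 to 24531784 (2149 bp), 549 kb from the cluster before it. This gap was taken on 1 side only, since the arm sequence ends at 24543557 with no cluster after it. It scored 0.77 in replicate 1 (rank 552 of 4370) and 0.51 in replicate 2 (rank 3578 of 4910), so its rank differed widely between the lists while its edges differed by 36 and 103 bp. A pair of consecutive regions of 3R followed. That from 1686178 to 1688488 (2311 bp) lay 117 kb from the nearest cluster and scored 0.52 in replicate 1 and 0.48 in replicate 2. That from 1831846 to 1834834 (2989 bp) lay 85.0 kb away and scored 0.64 and 0.54. The gap between these 2 regions was 143 kb. The region on 2L from 12973838 to 12975872 (2035 bp) was 80.6 kb away and scored 0.46 and 0.48. The region on 3L from 20096884 to 20098750 (1867 bp) was 78.9 kb away and scored 0.46 and 0.39. All 5 ranked below the middle of the replicate 2 list, and 3 of them below the middle of the replicate 1 list. The exceptions were the last cluster of 3L and the 3R region of 2989 bp.

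Edges were compared at the 385 regions with 1 cluster in each replicate. Starts differed by a median of 290 bp and ends by a median of 296 bp, which is 10.7% and 10.9% of the median length. Neither replicate was displaced: the signed differences, replicate 2 minus replicate 1, had medians of 9 bp at the start and 26 bp at the end. Replicate 1 was the longer at 196 regions and replicate 2 at 189. Both edges agreed within 500 bp at 196 regions (50.9%, exact interval 45.8 to 56.0), within 100 bp at 24 (6.23%) and within 1000 bp at 298 (77.4%). At 118 regions 1 edge was within 500 bp and the other was not, and at 71 neither was. The replicate clusters had a median of 70.3% of their joint bases in common (quartiles 51.3 and 84.7%).

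Where edges differed, the start and the end often moved the same way. Both were shifted in the same direction at 242 of 385 regions, against 71 where the replicate 2 cluster lay inside that of replicate 1 and 72 where the reverse held. Across regions the start and end differences had a Spearman's rho of 0.50 and a Pearson's r of 0.55, as a description over regions of the same 2 libraries. At each region the 2 differences are set apart only by the difference in cluster length, so they are not independent measures. Centres differed by a median of 270.5 bp and lengths by 335 bp. At reproducible clusters of 4 to 10 kb, of which 308 of 596 had 1 cluster in each replicate, both edges agreed within 500 bp in 27.3% (22.4 to 32.6). Their start and end differences were 563.5 and 494.5 bp at the median, 10.5% and 9.23% of their median length.

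**Figure D4:**
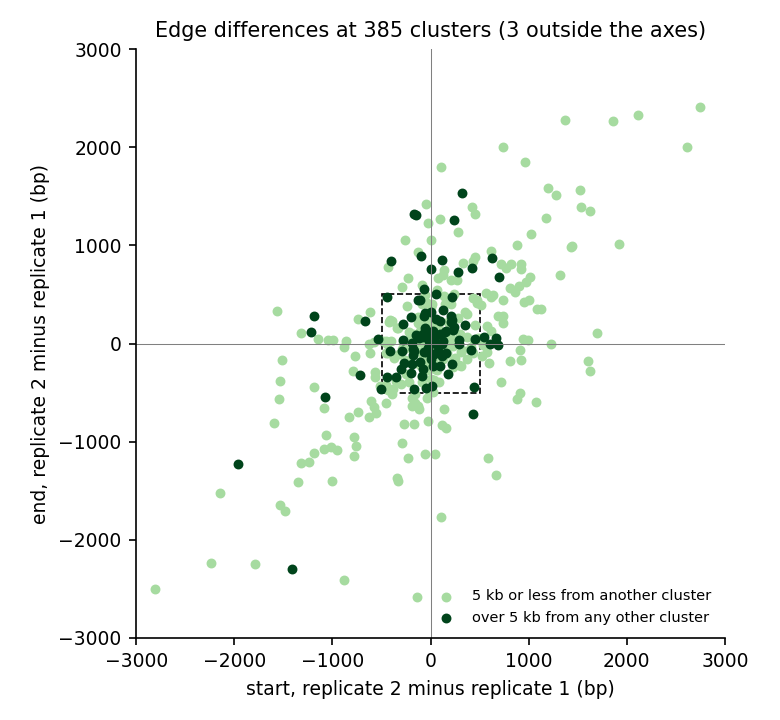
Each point is 1 of 385 short reproducible clusters with 1 cluster in each replicate, placed by the difference of start (horizontal axis, bp) and of end (vertical axis, bp), replicate 2 minus replicate 1. The dashed square marks 500 bp on both axes and holds 196 regions. Dark points are over 5 kb from any other combined cluster, and 3 regions lie outside the axes.

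Edge agreement went with isolation. Both edges were within 500 bp at 73 of 101 regions over 5 kb from another cluster (72.3%, exact interval 62.5 to 80.7), at 69 of 122 at 1 to 5 kb (56.6%, 47.3 to 65.5) and at 54 of 162 within 1 kb (33.3%, 26.1 to 41.2). The bases in common were 81.7%, 72.6% and 60.4% of the joint bases at the median. Isolated regions were also shorter, with a median of 2376 bp against 2980 bp within 1 kb, and shorter clusters leave less room for their edges. Within one class of length, 2 to 3 kb, the shares were 76.4% (42 of 55), 64.7% (44 of 68) and 36.1% (26 of 72), in the same order. At 3 to 4 kb they were 45.8% (11 of 24), 31.7% (13 of 41) and 27.3% (21 of 77), with overlapping intervals. Under 2 kb they were 90.9% (20 of 22), 92.3% (12 of 13) and 53.8% (7 of 13), so there the first 2 stood in the other order. No test was run, since edges and gaps come from the lists that chose the regions.

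Length alone went with the share in the same way. Both edges were within 500 bp at 81.2% of regions under 2 kb (39 of 48), 57.4% at 2 to 3 kb (112 of 195) and 31.7% at 3 to 4 kb (45 of 142). A replicate cluster has at least 1301 bp, so inside a combined cluster under 2 kb its edges could move by at most 698 bp. At 232 regions both replicate clusters lay inside the combined one. There the start differed by 13.1% of the available room under 2 kb, 14.9% at 2 to 3 kb and 15.1% at 3 to 4 kb (medians). For the end these values were 18.2%, 15.8% and 16.1%.

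The closest match was 3R from 11244634 to 11246700 (2067 bp), where starts differed by 6 bp and ends by 8 bp. It scored 0.53 in replicate 1 (rank 3488 of 4370) and 0.49 in replicate 2 (rank 3867 of 4910), below the middle of both lists. Next were 2L from 869664 to 872286 (2623 bp), with differences of 11 and 16 bp, and 3R from 26033368 to 26035602 (2235 bp), with 29 and 7 bp. These 2 were among the higher-scoring regions, with 0.88 and 0.78, and 0.96 and 1.10, in replicates 1 and 2. A region on 3L from 18013960 to 18015958 (1999 bp) had differences of 11 and 26 bp, and another on 3L from 245734 to 247460 (1727 bp) had 12 and 27 bp. The latter ranked 7481 of 7536 in the combined list, near its foot. Tight edges thus occurred at both ends of the score range.

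The 3 largest mismatches were all within 1 kb of another cluster. On 3L from 20400332 to 20403848 (3517 bp), which lay 81 bp from a domain of 10805 bp, replicate 1 had a cluster of 9759 bp and replicate 2 one of 1738 bp, and the starts differed by 9191 bp. On 3L from 5164506 to 5167238 (2733 bp), 119 bp from a domain of 14551 bp, the clusters of 4516 and 1623 bp shared no base. On 3R from 4078616 to 4082614 (3999 bp), also the longest region, the clusters of 1823 and 2129 bp lay side by side and shared no base.

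Scores were compared as ranks within each list, as the percentile of clusters scoring at or below a value. Short reproducible clusters lay in the lower part of the replicate lists, with median percentiles of 28.7 in replicate 1 and 32.4 in replicate 2 (mean 30.5 ± 2.64, SD, n = 2). In the combined list their median percentile was 67.3. Of the 403, 136 were above the 50th percentile of the combined list and below it in both replicate lists. Another 101 were below it in all 3 lists and 40 above it in all 3. The lists differ in what they hold: on the 3 arms the combined list had 3495 clusters under 4 kb, and the replicate lists had 2028 and 2378. Scores themselves were 0.24 to 1.08 in replicate 1 (median 0.55) and 0.22 to 1.10 in replicate 2 (median 0.52), and 0.16 to 1.00 in the combined list (median 0.44).

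Longer reproducible clusters ranked higher in both replicates. Clusters of 4 to 10 kb had median percentiles of 60.0 and 58.7, and those of 10 kb and more had 86.2 and 86.9. A region that met several clusters of a replicate took the highest of their scores. Where each replicate had 1 cluster, the medians were 27.9 and 32.4 for 385 short regions, 60.6 and 60.9 for 308 of 4 to 10 kb and 95.4 and 93.6 for 42 of 10 kb and more, values added after the others had been seen. Within the combined list, short clusters in both replicates ranked above other short clusters, whose median percentiles were 33.1 (replicate 1 only), 32.8 (replicate 2 only) and 30.5 (neither). At equal length the order was the same from 2 kb up: at 2 to 2.5 kb the medians were 66.2 for both, 47.2 for either replicate alone and 37.4 for neither. At 1.5 to 2 kb it was not, with 16.7 for both and 20.0 for neither. Combined scores and replicate overlap come from the same 2 ChIP libraries. These orders are therefore descriptions and are not independent of how the regions were chosen. In the replicate 1 list, short combined clusters in replicate 1 only had a median percentile of 29.1, against 28.7 for those in both. In the replicate 2 list, those in replicate 2 only had 26.1, against 32.4 for those in both, so the order held in replicate 2 and not in replicate 1.

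Replicate ranks of the short reproducible clusters were only loosely tied. The scores of the 2 replicates had a Spearman's rho of 0.28 over the 403 regions, against 0.52 over 596 regions of 4 to 10 kb and 0.71 over 385 of 10 kb and more, as descriptions over regions that share their libraries. With 1 cluster in each replicate the values were 0.29, 0.57 and 0.75. In both lists 237 regions (58.8%) were below the 50th percentile and 42 (10.4%) above it, while 49 were above it in replicate 1 only and 75 in replicate 2 only. Above the 90th percentile lay 8 regions in replicate 1, 15 in replicate 2 and 4 in both. The 8 include 3R from 17119514 to 17120862 and 3L from 20400332 to 20403848. Their replicate 1 clusters covered 10.3% and 24.6% of them and lay mainly outside them. The first of these clusters also gave its score to 3R from 17121032 to 17124872, so it counts at both regions. The combined score followed replicate 2 with a rho of 0.66 and replicate 1 with 0.56.

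Rank and isolation were related differently in the 2 replicates. Regions over 5 kb from another cluster had a median percentile of 17.3 in replicate 1 and 36.3 in replicate 2. Those at 1 to 5 kb had 25.2 and 32.0, and those within 1 kb had 33.7 and 32.3. The order was thus present in replicate 1 and not in replicate 2, and the difference was not tested. Regions over 5 kb away were also shorter than those within 1 kb (medians of 2376 and 2980 bp), and these ranks were not split by length. Within 1 kb, 19 regions met a replicate 1 cluster that also overlapped another combined cluster. For replicate 2 this number was 8. The part of either in these ranks was not tested.

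**Figure D5:**
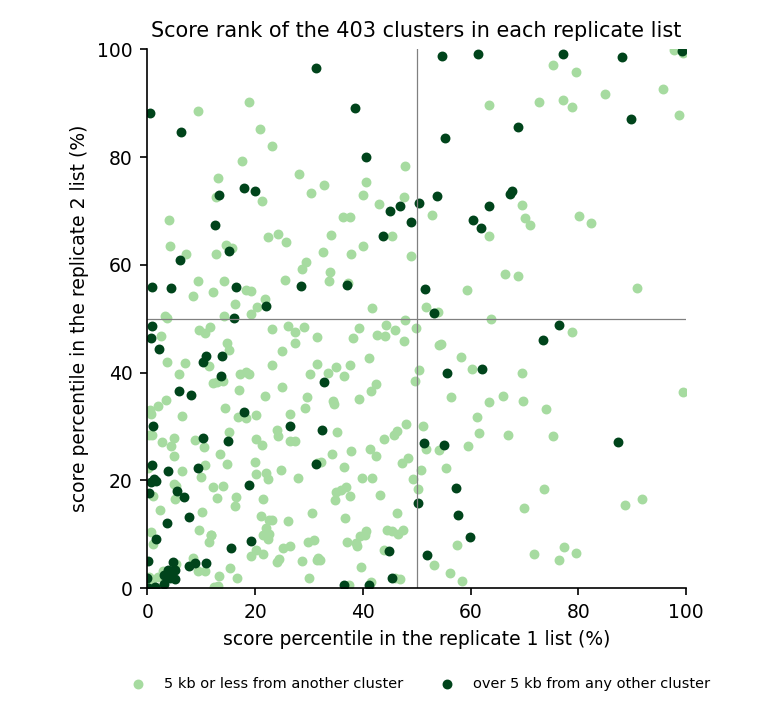
Each point is 1 of the 403 short reproducible clusters, placed by its score percentile in the replicate 1 list (horizontal axis, %) and in the replicate 2 list (vertical axis, %). Lines mark the middle of each list. The lower left part holds 237 regions and the upper right 42, and dark points are over 5 kb from any other combined cluster.

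Scores in all 3 lists changed level at a length of 2 kb, which bears on these ranks. In replicate 1 the lowest score was 0.36 among 426 clusters of 1800 to 1999 bp and 0.52 among 420 clusters of 2000 to 2199 bp, with medians of 0.54 and 0.60. In replicate 2 the lowest were 0.31 and 0.40 and the medians 0.50 and 0.57. In the combined list the lowest were 0.15 and 0.33, and the number of clusters fell from 672 to 343. Of the short reproducible clusters, 223 met replicate 1 with a cluster under 2 kb, at a median percentile of 14.2, and 180 with one of 2 kb or more, at 47.7. In replicate 2 these were 228 regions at 19.1 and 175 at 52.6. The 49 regions whose combined cluster was under 2 kb had a median combined percentile of 16.8, against 69.7 for the other 354. The sources used here do not say how the caller treats length, and its part in the ranks was not tested.

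The 5 highest combined scores among short reproducible clusters lay on 3R and 3L. First was 3R from 1424558 to 1428038 (3481 bp), with a combined score of 1.00 and scores of 1.05 in replicate 1 (rank 35 of 4370) and 1.06 in replicate 2 (rank 21 of 4910). It stood 6569 bp from its nearest neighbour, and its edges differed by 118 and 123 bp. Next came 3R from 26033368 to 26035602, one of the closest matches above, with a combined score of 0.99. Its replicate 2 score of 1.10 (rank 11) was the highest of any short reproducible cluster in that list, and its nearest neighbour was a domain of 23165 bp at 1373 bp. The next was 3R from 17121032 to 17124872 (3841 bp), with 0.96. It held most of the cluster with the highest replicate 1 score among the 403 (1.08, rank 26), the same cluster that reached into the shortest region. The last of these 5 regions were 3L from 22068010 to 22070432 (2423 bp), with 0.84, and 3L from 222964 to 226462 (3499 bp), with 0.83. Both scored higher in replicate 2 (0.99 and 0.96, ranks 41 and 69) than in replicate 1 (0.70 and 0.78, ranks 998 and 521), and both lay over 5 kb from any other combined cluster, at 10865 and 9493 bp.

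The 100 highest scores of the combined list included 3 short reproducible clusters, which made up 5.35% of the whole list. Of these 100, 50 were on the 3 arms, 15 of them under 4 kb. Of those 15, 3 were short reproducible clusters, against 11.5% of all short combined clusters of the 3 arms. The other 12 overlapped neither replicate, as did 2040 of all 3495 short combined clusters there. These 12 had scores of 1.05 to 3.61 and a median length of 1070 bp. The highest score among short reproducible clusters was 1.00, below every one of these 12.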

How the data were processed

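The authors deposited 3 lists of enriched regions, 1 per ChIP replicate and 1 for the set of replicates (the combined list). The score of each region is the authors' value as deposited, with no stated scale, so it was used only as a rank or a description within its list. Coordinates are on FlyBase r5, per the file headers, and Bowtie 0.12.7 is named in the submitters' processing notes. The sources used here do not give the region caller, its threshold or the way replicates were combined. Inputs enter only through these lists. Depth is unknown.

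The software was Python 3.11.15 with pandas 2.3.3, numpy 2.4.6, matplotlib 3.10.9 and, for intervals, scipy 1.17.1. An overlap needed 1 shared bp or more. Gaps are the bases between regions. Where several replicate clusters met a region, the highest score and the outermost edges were used, and edges were compared only where each replicate had 1 cluster. Windows of 1 Mb took regions by their centre, and the partial window at each arm's end stayed out of the window counts. Intervals at 95% (Clopper-Pearson for shares, Poisson for counts) cover counting error only. The measures were checked on simulated data with known answers. The rule named the 5 regions with the highest combined score, the 5 most isolated, the 5 with the closest and the 3 with the farthest edges, the top region of each replicate, the 2 regions on each side of the length limit, the fullest and emptiest window of each arm and the 3 tightest runs of 5. Regions, classes and measures were chosen with earlier results of these data known. The scores at 2 kb, the room for edges, the classes of isolation and the top 100 of the combined list were added after the values had been seen. Sequence motifs were planned and not run, since no genome of this build was used here.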

Additional observations from a re-analysis of the deposited data

How the results depend on the processing

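Of 42 alternative values 14 stayed the same, 28 moved and 0 reversed. A count stayed the same within 1.5 times, a share or density within its 95% interval, and the rank within 1 SD of the 2 replicates. The number of regions (403) was 246 with a limit of 3 kb, 244 with combined clusters within 1 kb merged, 42 with replicate clusters at or above the median score of their list, and 906 to 952 with 1 replicate left out. The share of short combined clusters (11.5%) was 8.90% with 50% of the combined cluster covered in each replicate, 8.78% with reciprocal overlap of 50%, 7.88% and 15.0% with limits of 3 and 5 kb, 1.20% with the score threshold, and 25.9% to 27.2% with 1 replicate left out. The density (5.34 per Mb) was 0.557 with the score threshold and 12.0 to 12.6 with 1 replicate left out. Without a replicate, 1 overlap fewer is required.

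The share over 5 kb from another cluster (25.8%) was 60.8% counting only neighbours in both replicates, 45.5% after merging, 31.3% with a limit of 3 kb, 30.9% with 50% covered, and 18.8% to 23.6% with 1 replicate left out. It was 55.1% and 57.6% in the lists of replicates 1 and 2, 2 settings added after seeing the data, as was leaving out, for edges, regions whose replicate clusters meet another combined cluster (53.7%). Edge agreement (50.9%) was 62.1% with a limit of 3 kb and 68.3% with the score threshold, and cannot be had with 1 replicate. The mean rank (30.5) was 34.1 among clusters of the 3 arms, 38.8 among clusters under 4 kb, and 24.5 and 35.3 with limits of 3 and 5 kb; without 1 replicate it was 28.7 to 32.4, which is within 1 SD by construction. The cause was not tested for the other changes. No paired analysis was possible because no test was run and the input libraries have no values of their own here. Unknown depth limits statements on clusters that were not called.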
